A study of Mus musculus with 6 samples.

Results

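The 9 genes described here lay out the dorsal to ventral axis of the mouse retina. They are 5 dorsal genes (Tbx2, Tbx3, Tbx5, Efnb1 and Efnb2) and 4 ventral genes (Vax1, Vax2, Ephb2 and Ephb3). They were taken by name from the 39179 genes counted in each library, and all 9 passed the filter on low counts. The counts come from bulk RNA-seq of retinas of newborn mice at postnatal day 0.5, on a mixed, mainly CD-1 background. The 3 control mice carried the loxP-flanked Lhx2 alleles (Lhx2 lox/lox) without a Cre, although the series' design text calls them wild type. The 3 conditional knockout (cKO) mice carried the same alleles together with Pdgfrα-Cre, a recombinase driven by the Pdgfra promoter, so that floxed Lhx2 is shared by both groups. The sources used here give neither the retinal cells with Cre activity nor the Lhx2 exons it removes. The libraries are called control 2, 3 and 4 and cKO 1, 2 and 3, after the numbers in their titles, and groups of 3 values follow that order throughout.

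Tbx2, Tbx3 and Tbx5 encode T-box transcription factors that are produced most strongly in the dorsal optic cup, where bone morphogenetic protein 4 turns them on. Vax1 and Vax2 encode homeodomain factors of the optic stalk and the ventral retina, a territory set by hedgehog signalling. Downstream of these factors lie membrane proteins of the retinotectal map: the ephrin-B ligands (Efnb1, Efnb2) are graded high in dorsal retina and their EphB receptors (Ephb2, Ephb3) high in ventral retina, and ganglion cell axons use both to find their place along the target. Lhx2, a LIM homeodomain factor, is known to be needed in the optic vesicle for both the dorsal and the ventral programme. In whole retina, fewer cells of a type and less RNA per cell cannot be told apart, and no sample was divided into dorsal and ventral parts.

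The 3 T-box genes were the members that fell, so the most alike stretch of their coding sequences is shown, from the region that encodes the DNA-binding T-box. It spans coding bases 763 to 852 of Tbx2, 817 to 906 of Tbx3 and 616 to 705 of Tbx5 (GENCODE vM21 transcripts, GRCm38), and capitals mark the 66 of 90 bases that are the same in all 3 genes.
Tbx2: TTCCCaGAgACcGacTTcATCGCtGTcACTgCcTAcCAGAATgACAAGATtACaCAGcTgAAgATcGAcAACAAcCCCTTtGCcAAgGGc
Tbx3: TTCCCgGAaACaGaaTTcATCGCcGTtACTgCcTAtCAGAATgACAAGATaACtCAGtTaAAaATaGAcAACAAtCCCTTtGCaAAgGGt
Tbx5: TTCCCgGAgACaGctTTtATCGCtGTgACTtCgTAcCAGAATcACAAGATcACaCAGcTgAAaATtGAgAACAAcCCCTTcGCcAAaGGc
Within these 90 bases Tbx2 had 74 in common with Tbx3 and 75 with Tbx5. The longest run of identical coding bases was 14 for Tbx2 and Tbx3, 20 for Tbx2 and Tbx5 and 15 for Tbx3 and Tbx5. None of the 3577 stretches of 50 bases in Tbx2 transcripts (0) occurred in Tbx3 or Tbx5. The longest identical run of Vax1 and Vax2 was 23 bases, and that of Ephb2 and Ephb3 was 29. No stretch of 50 bases was shared by either pair or by Efnb1 and Efnb2 (0), so reads of that length or longer can be told apart between paralogs.

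Reads counted on genes numbered 31483170 to 66947478 per library. The libraries fell into 2 sets that cross genotype: the share of all deposited counts that was ambiguous between genes was above 2.9% in control 2, cKO 1 and cKO 2 (set A, 3.13 to 3.20%) and below it in control 3, control 4 and cKO 3 (set B, 2.63 to 2.69%). Several members differed between sets more than between genotypes: Vax2 was lower in set B by a log2 difference of -1.39 (SE 0.11) and Ephb3 by -1.05 (SE 0.12), while Tbx5 was higher there by 1.01 (SE 0.18). The comparison of cKO with control therefore carries library set as a term, and values from genotype alone stand beside it. Sex also differed: controls 2 and 4 were male by their Y-linked counts and the other 4 libraries female, so in set A sex and genotype cannot be told apart. Lhx2 itself stood at 399, 266 and 258 CPM (reads scaled to library size) in control libraries and 252, 287 and 224 CPM with the knockout. Its log2 difference was -0.40 (edgeR, adjusted p = 0.0338), and -0.27 (adjusted p = 0.817) with genotype alone. Lhx2 lost its call under 6 of 15 alternatives: it was -0.34 with sex (adjusted p = 0.371, edgeR), -0.22 without control 2 (0.414), -0.42 without control 3 (0.0794), -0.41 without cKO 2 (0.0602) and -0.54 without cKO 3 (0.0727). Since the removed exons are not known, these values check the labels only in part.

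All 3 dorsal T-box genes fell in the cKO retinas, to between 0.555 and 0.593 of the control level within library sets. The ephrin-B ligands and the 4 ventral genes did not pass the test. Thus 3 of 9 members were lower and 0 were higher, against 5.63% of the 16691 genes tested that were lower and 6.36% that were higher (edgeR's quasi-likelihood test with library set as a term, Benjamini-Hochberg adjusted p under 0.05 over all genes tested). The median log2 fold change was -0.75 for the 5 dorsal and 0.10 for the 4 ventral genes, beside -0.00098 over all genes. With genotype alone these medians were -0.62, 0.44 and 0.017. With genotype alone 0 members passed, where 0.216% of all genes did in either direction. Those were 36 genes, all of them higher in the cKO, and 0 genes were lower. Tbx2 and Tbx3 (2 members) had an unadjusted p under 0.05 in that fit (edgeR). With sex as a further term 0 members passed, where 0.377% of all genes were lower, and the 3 T-box genes had an unadjusted p under 0.05.

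**Figure D1:**
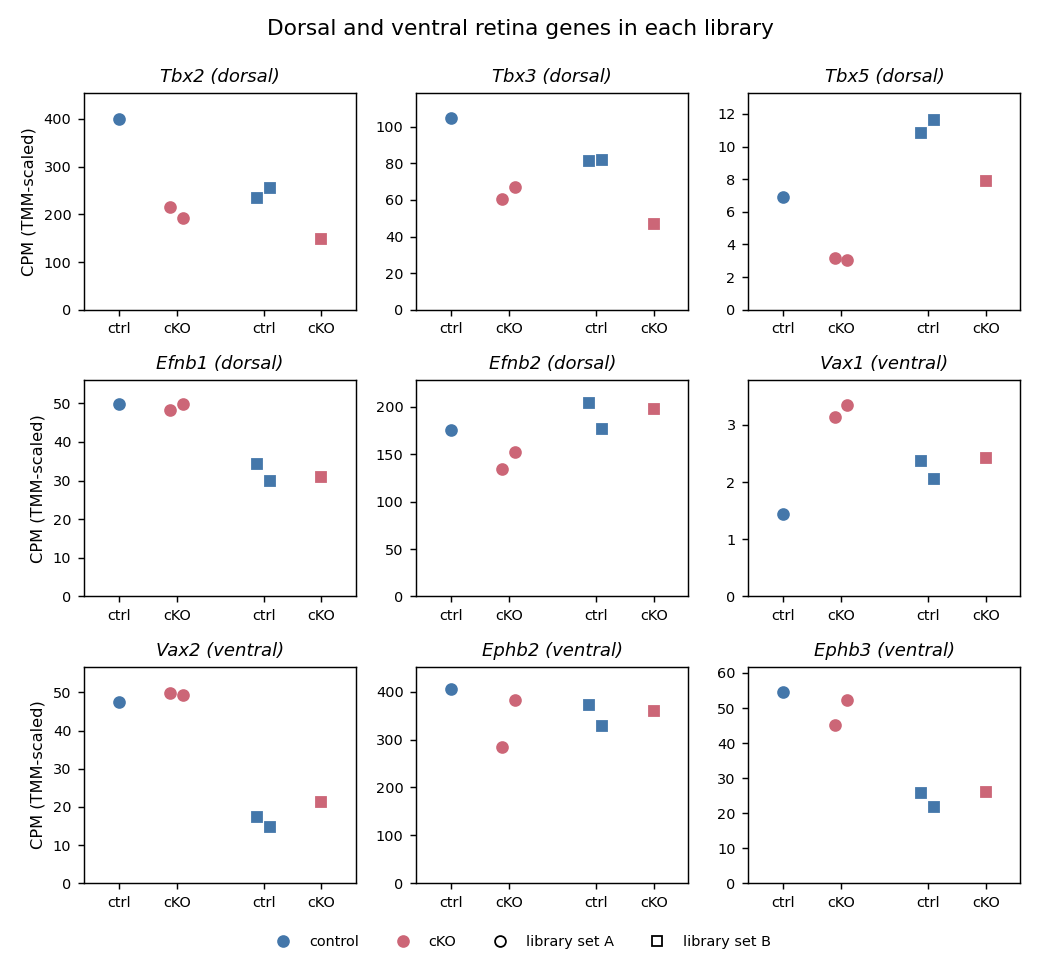
CPM of each member (y axis, from 0, scaled by TMM) in each of the 6 libraries, grouped on the x axis as set A control, set A cKO, set B control and set B cKO; each point is 1 library, with circles for set A and squares for set B. Tbx2, Tbx3 and Tbx5 are lower in every cKO library than in the controls of the same set, for example 148 against 235 and 256 CPM for Tbx2 in set B.

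Tbx2 (ENSMUSG00000000093; GRCm38 chromosome 11, 85832551 to 85841948, plus strand) encodes a T-box repressor of the dorsal retina. Control libraries held 400, 235 and 256 CPM, against 215, 193 and 148 CPM with the knockout. Every cKO library lay below every control, although cKO 1 and control 3 were close. On the log2 scale the difference was -0.85 (SE 0.09, 95% interval -1.06 to -0.64, adjusted p = 0.00118, edgeR). It was -0.97 among set A libraries and -0.72 among those of set B. The value was -0.68 (adjusted p = 0.632) with genotype alone and -0.72 (adjusted p = 0.0738) with sex as a further term, and over all alternatives the adjusted p ran from 9.6e-18 to 0.632. In set B, the female control 3 and the male control 4 both stood above the female cKO 3.

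Tbx3 (ENSMUSG00000018604; chromosome 5, 119670669 to 119684724, plus strand), a close relative of Tbx2, reached 105, 81.6 and 81.6 CPM in control libraries. With the knockout it reached 60.5, 67.2 and 47.1 CPM, again with no overlap between the groups, a trait whose share over all genes was not counted. It fell by a log2 difference of -0.75 (SE 0.08, 95% interval -0.94 to -0.56, adjusted p = 0.00133, edgeR), by nearly the same amount in both sets (-0.72 in set A and -0.79 in set B). The call was lost with genotype alone (-0.62, adjusted p = 0.515) and with sex as a further term (-0.77, adjusted p = 0.0512), within a range of 9.47e-14 to 0.515 over the alternatives. The antisense gene Tbx3os1, which overlaps the start of Tbx3 on the other strand, held 3 to 16 reads per library against 1383 to 4863 for Tbx3. Whether counting used strand is unknown, and an effect of the overlap on the Tbx3 counts was not tested.

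Tbx5 (ENSMUSG00000018263; chromosome 5, 119832668 to 119885219, plus strand), the T-box gene most restricted to the dorsal retina, lies 147.9 kb from Tbx3. It was far less abundant, with 6.93, 10.8 and 11.6 CPM in control libraries (317 to 362 reads) against 3.14, 3.07 and 7.86 CPM with the knockout (176 to 231 reads). The groups overlapped across sets, since cKO 3 lay above control 2, and separated within each set. Tbx5 fell by a log2 difference of -0.84 (SE 0.18, 95% interval -1.24 to -0.43, adjusted p = 0.0180, edgeR). It was -1.15 among set A libraries and -0.51 among those of set B. Without control 2, which leaves set B alone, the value was -0.51 (adjusted p = 0.255). The call was also lost with genotype alone (-1.07, adjusted p = 0.654), with sex as a further term (-0.63, adjusted p = 0.284) and with the label number as a replicate block (-0.82, adjusted p = 0.0548). Its adjusted p lay between 8.95e-05 and 0.654 across the alternatives.

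The 3 T-box genes were the 3 members with every cKO library below the controls of the same set, an arrangement that 23.8% of all genes tested also showed. Vax1 and Vax2 (2 members) had every cKO library above the controls of the same set, as did 22.9% of all genes. Genes whose groups did not overlap even across sets, as for Tbx2, Tbx3 and Vax1 here and Gli1 and Foxd1 below, were not counted over all genes. No share therefore stands beside that arrangement, which is a description. A test of whether the genotype difference itself differed between sets passed for 0 members (edgeR, 0 at an unadjusted p under 0.05) and for 4 of all genes tested. Set A holds 1 control and set B 1 cKO library, so this test has little to rest on and does not show that the sets were alike.

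The ephrin-B ligands are the dorsal membrane proteins of the map. Efnb1 (ENSMUSG00000031217; chromosome X, 99136130 to 99148991, plus strand) gave 49.9, 34.3 and 29.8 CPM in control libraries, against 48.2, 49.7 and 30.9 CPM with the knockout. Its levels followed library set, and the genotypes were interleaved. The log2 fold change was -0.04 with a 95% interval of -0.24 to 0.16 (adjusted p = 0.826, edgeR). Efnb2 (ENSMUSG00000001300; chromosome 8, 8617434 to 8661242, minus strand), which arterial endothelium also expresses, gave 176, 204 and 177 CPM in control libraries, against 134, 153 and 197 CPM with the knockout. The 2 cKO libraries of set A lay below their control and cKO 3 lay between its controls, giving -0.12 (95% interval -0.36 to 0.12, adjusted p = 0.534, edgeR). The difference between T-box genes and ligands was not itself tested.

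**Figure D2:**
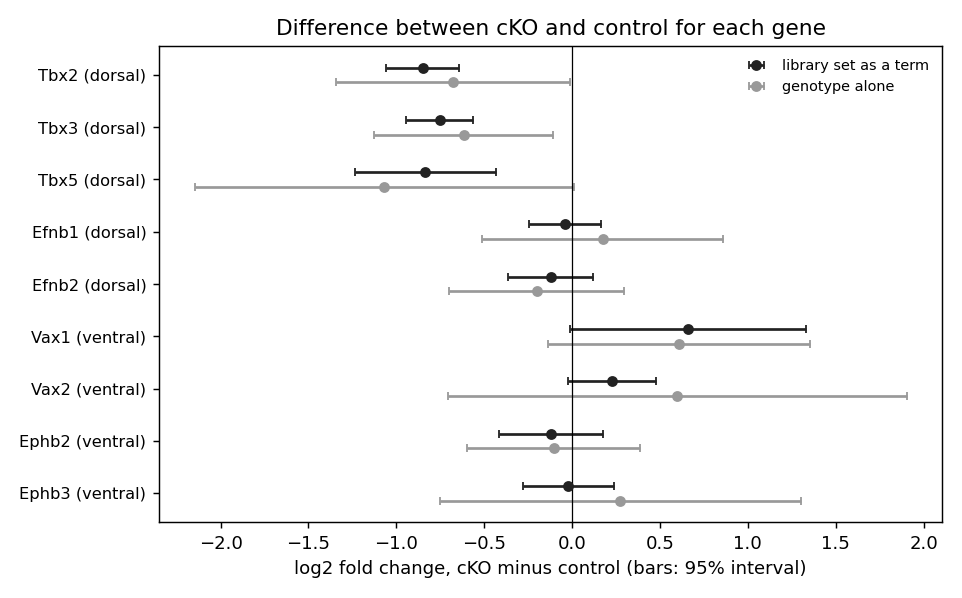
Log2 fold change of each member, cKO minus control (x axis), with 95% intervals, from the fit with library set as a term (black) and from genotype alone (grey). The intervals of Tbx2, Tbx3 and Tbx5 with library set lie below 0, and those of the other 6 members include 0.

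Among the ventral factors, Vax2 (ENSMUSG00000034777; chromosome 6, 83711264 to 83738313, plus strand) reached 47.4, 17.3 and 14.8 CPM in control libraries. With the knockout it was at 49.8, 49.3 and 21.4 CPM. Library set dominated these values, and within each set the cKO libraries were slightly above the controls, with a log2 fold change of 0.23 (95% interval -0.02 to 0.48, adjusted p = 0.231, edgeR). The antisense gene Vax2os, which overlaps the start of Vax2, held 115 to 407 reads per library against 447 to 3567 for Vax2. Vax1 (ENSMUSG00000006270; chromosome 19, 59166187 to 59170056, minus strand), better known from the optic stalk, was the scarcest member, with 62 to 79 reads in the controls and 71 to 242 in the cKO libraries. Scaled, these were 1.44, 2.36 and 2.05 CPM, against 3.14, 3.34 and 2.42 CPM with the knockout. The groups did not overlap, though cKO 3 barely exceeded control 3, and the log2 fold change of 0.66 had a wide interval of -0.01 to 1.33 (adjusted p = 0.199, edgeR). It was 1.14 within set A and 0.13 within set B.

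The ventral receptors did not pass the test either. Ephb2 (ENSMUSG00000028664; chromosome 4, 136647539 to 136835988, minus strand), a receptor tyrosine kinase for ephrin-B, gave 405, 372 and 328 CPM in control libraries, against 284, 383 and 361 CPM with the knockout. Both cKO libraries of set A lay below their control, and cKO 3 lay between its controls, with a log2 fold change of -0.12 (95% interval -0.41 to 0.18, adjusted p = 0.622, edgeR). Ephb3 (ENSMUSG00000005958; chromosome 16, 21204755 to 21223305, plus strand) gave 54.5, 25.8 and 21.8 CPM in control libraries, against 45.1, 52.2 and 26.1 CPM with the knockout. It gave -0.02 (95% interval -0.28 to 0.24, adjusted p = 0.929, edgeR), a value that turned positive under 4 of 15 alternatives.

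Relative to the ventral genes, the dorsal genes were lower in the cKO libraries of each set. The mean log2 CPM of the 5 dorsal genes exceeded that of the 4 ventral genes by 1.11 in control 2, 1.44 in control 3 and 1.61 in control 4. The excess was 0.36 in cKO 1, 0.22 in cKO 2 and 0.94 in cKO 3. The difference between genotypes within sets was -0.70, with a residual SD of 0.12 between libraries; it is a description of chosen genes, with no test. The gap was wider for the T-box genes, whose mean exceeded the ventral mean by 0.91 to 1.52 in controls and by -0.32 to 0.52 in cKO. The same figure for the ephrins was 1.41 to 1.74 in controls and 1.03 to 1.56 in cKO. The ventral mean enters all of these values and was itself higher in the cKO libraries of each set. It was 5.14 in control 2 against 5.24 and 5.42 in cKO 1 and 2, and 4.65 and 4.44 in controls 3 and 4 against 4.73 in cKO 3. This mean weighs scarce and abundant genes alike. Within set A Vax1 was at 1.14 and Vax2 at 0.06, but Ephb2 at -0.30 and Ephb3 at -0.17. Within set B all 4 were above 0, from 0.05 to 0.42. The summed CPM of the ventral genes was 508 in control 2 against 382 and 488 in cKO 1 and 2. In set B the sum was 417 and 367 in controls 3 and 4 against 410 in cKO 3. Ratios of reads inside a library, which no scaling touches, showed the same order for T-box genes and not for the ephrin Efnb2. There were 14.6 Tbx5 reads per 100 Vax2 reads in control 2 against 6.30 and 6.22 in cKO 1 and 2, and 62.7 and 78.5 in controls 3 and 4 against 36.8 in cKO 3. Tbx2 gave 98.7 reads per 100 of Ephb2 in control 2 against 75.8 and 50.4 in cKO 1 and 2, and 63.2 and 77.9 in controls 3 and 4 against 41.1 in cKO 3. Efnb2 gave 43.4 reads per 100 of Ephb2 in control 2 against 47.3 and 39.9 in cKO 1 and 2, and 55.0 and 53.9 in controls 3 and 4 against 54.8 in cKO 3, so its genotypes were mixed. The number of Tbx2 reads per Tbx3 read was 2.88 to 3.82 in controls and 2.87 to 3.56 in cKO, also with the genotypes mixed.

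**Figure D3:**
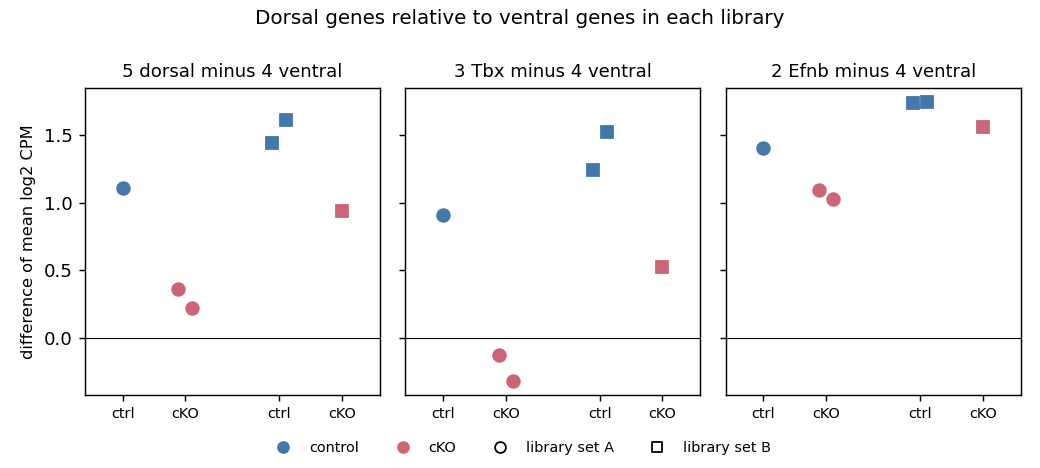
Difference of mean log2 CPM (y axis) in each library between all 5 dorsal genes, the 3 Tbx genes or the 2 Efnb genes and the 4 ventral genes; points are single libraries, arranged as set A control, set A cKO, set B control and set B cKO. The Tbx panel shows the widest gap, from 0.91 in control 2 to -0.13 and -0.32 in cKO 1 and 2.

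Levels were set side by side between genes as CPM per kb of merged exons. The merged exons of all annotated transcripts span 12608 bases for Ephb2 against 1117 for Vax1 and 1242 for Vax2. The order therefore depends on the annotation. In controls the order was Tbx2 (81.9 ± 24.8 CPM per kb), Ephb2 (29.2 ± 3.06), Efnb2 (27.1 ± 2.36), Vax2 (21.3 ± 14.6), Tbx3 (13.5 ± 2.02), Efnb1 (11.02 ± 3.06), Ephb3 (5.12 ± 2.69), Tbx5 (2.10 ± 0.54) and Vax1 (1.75 ± 0.42; SD, n = 3 each). Tbx2 stood above all others in every control. The control ranges of Ephb2 and Efnb2 overlapped, as did those of Tbx3 with Efnb1 and of Tbx5 with Vax1. The place of Vax2 followed library set: it came next after Tbx2 in control 2, but near Tbx3 in controls 3 and 4, and its range overlapped those of Ephb2, Efnb2, Tbx3 and Efnb1. In the cKO the level per kb was 51.1 ± 9.39 for Tbx2, 8.79 ± 1.55 for Tbx3 and 1.003 ± 0.59 for Tbx5, and in every cKO library Tbx3 stood below Efnb1 (12.4 ± 3.02) and Tbx5 below Vax1 (2.66 ± 0.44; SD, n = 3 each).

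Genes of the pathways that set this axis were examined as 6 lists with 74 tested genes. With library set as a term 16 of them passed, 5 higher and 11 lower. With genotype alone 0 passed (edgeR, 13 at an unadjusted p under 0.05). With sex as a further term 4 passed, 1 higher and 3 lower, where 0.377% of all genes were lower. Over all 16691 genes tested, 5.63% were lower and 6.36% higher with library set, and 0.216% passed with genotype alone, all of them higher. The counts in the axis and marker lists below stand beside these shares. In the list of bone morphogenetic protein (BMP) signalling, which drives the dorsal programme, 2 of 17 tested genes fell, 1 rose and 14 did not pass (median -0.26). Id1, an inhibitor of bHLH factors and a direct BMP target, gave 89.5, 87.1 and 88.6 CPM in control libraries, against 41.7, 27.0 and 28.7 CPM with the knockout. Its log2 difference was -1.496 (SE 0.16, adjusted p = 0.00114, edgeR), and it passed also with sex as a further term (adjusted p = 0.0454). Id2, of the same family, fell by 1.25 (edgeR, SE 0.13, adjusted p = 0.00103), from 250, 81.6 and 78.4 CPM to 78.9, 97.2 and 40.7 CPM. Its call was lost with sex as a further term (-1.16, adjusted p = 0.0532, edgeR). Bmpr1b, a BMP receptor known from ventral retina, rose by 1.497 (SE 0.19, adjusted p = 0.00267, edgeR), from 4.87, 12.1 and 7.79 CPM to 11.8, 15.8 and 28.1 CPM, with an adjusted p of 0.0514 without cKO 3. With sex as a further term Bmpr1b was at 1.12 and lost its call (adjusted p = 0.0862, edgeR). The ligand gene Bmp4 was chosen for its role after its values were seen. Its reads were few, at 0.10 to 0.85 CPM in controls and 0.14 to 0.37 CPM in cKO. The log2 fold change was -0.77 with a wide 95% interval of -2.46 to 0.91. Its sign differed between sets, at -1.93 in set A and 1.44 in set B.

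Retinoic acid is made by a dorsal and a ventral enzyme at the poles of this axis. Of the 9 genes of its synthesis and breakdown, 0 passed with edgeR and 0 with limma-voom (median -0.20), although 4 had an unadjusted p under 0.05 and DESeq2 called 3. Other settings of edgeR also called genes of this list, namely Aldh1a3 under 4 and Rdh10 under 5 of them. The dehydrogenase genes were chosen for their roles. Aldh1a1, the dorsal enzyme, gave 153, 108 and 97.7 CPM in control libraries, against 117, 113 and 138 CPM with the knockout, with a log2 fold change of 0.0040 (95% interval -0.35 to 0.36). Its sign differed between sets, at -0.41 in set A and 0.43 in set B. Aldh1a3, the ventral enzyme, gave -0.52 (95% interval -0.86 to -0.17, adjusted p = 0.0611, edgeR), and Rdh10, which supplies retinaldehyde and had the smallest p of the list, gave 0.30 (adjusted p = 0.0525, edgeR). With sex as a further term 1 gene of this list passed, Cyp26a1, which degrades retinoic acid (-1.15, adjusted p = 0.0243, edgeR, against -0.56 and 0.126 without sex).

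Of the 11 genes of ventral and optic stalk signals, 5 fell, 1 rose and 5 did not pass (median -0.43). Among those that fell were 4 genes of the hedgehog pathway: the transcription factors Gli1 (-0.84, SE 0.08) and Gli2 (-0.70, SE 0.15), the co-receptor Cdon (-0.74, SE 0.10) and the transducer Smo (-0.43, SE 0.09). Gli1 gave 140, 102 and 104 CPM in control libraries, against 76.0, 76.4 and 59.5 CPM with the knockout, with no overlap. Ntn1, the axon guidance cue netrin-1, rose by 1.44 (SE 0.27), from 0.63 to 1.36 CPM in controls to 2.55 to 2.95 CPM in cKO. With sex as a further term 1 of these genes, Gli1, still passed (adjusted p = 0.0362, edgeR). Without control 2 the calls of Smo (-0.31, adjusted p = 0.233, edgeR) and Gli2 (-0.58, 0.1945) were lost, and without control 3 likewise (0.0508 and 0.0638). Without cKO 3 the calls of Cdon (adjusted p = 0.0574, edgeR), Ntn1 (0.1725), Smo (0.0615) and Gli2 (0.113) were lost.

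Other EphB receptors, the remaining ephrin-B and their signalling partners made up a list in which, of 13 genes, 1 rose, 1 fell and 11 did not pass (median 0.0099). Efnb3 rose by 0.36 (SE 0.10, adjusted p = 0.0452, edgeR), and Tiam1, an activator of Rac that EphB receptors bind, fell by 0.49 (SE 0.13, adjusted p = 0.0386, edgeR). Both calls depended on the setting: Efnb3 lost its call under 8 and Tiam1 under 6 of 15 alternatives, both of them without any 1 of control 2, 3 or 4 or cKO 3 (adjusted p = 0.0779 to 0.259 for Efnb3 and 0.0615 to 0.3355 for Tiam1, edgeR). On the other retinal axis, from nasal to temporal, 3 of 15 genes fell and 12 did not pass (median -0.10). They were the temporal forkhead genes Foxd2 (-2.60, SE 0.41) and Foxd1 (-1.04, SE 0.18) and the receptor gene Epha4 (-0.41, SE 0.10). With sex as a further term all 3 calls were lost. Without control 2 all of these calls were lost: Foxd2 was at -3.53 (adjusted p = 0.0517, edgeR), Foxd1 at -0.74 (0.159) and Epha4 at -0.46 (0.136). Epha4 lost its call under 6 of 15 alternatives, including without control 3 (adjusted p = 0.0962, edgeR), control 4 (0.0696) or cKO 3 (0.318). Foxd1 gave 18.8, 12.3 and 8.98 CPM in control libraries, against 8.18, 7.14 and 6.37 CPM with the knockout, with every cKO library below every control. Foxd2 was scarce, at 1.38, 0.81 and 0.83 CPM in control libraries (25 to 63 reads). With the knockout it held 0.25, 0.30 and 0.068 CPM (2 to 22 reads). The alternative filter on a mean CPM of at least 1 left Foxd2 out.

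The rest of the T-box family was listed with the COUP-TF nuclear receptors. Of these 13 further T-box and COUP-TF genes, 9 were tested, of which 2 rose and 7 did not pass (median 0.22). Tbr1, a T-box factor of ganglion cells and cortical neurons, rose from 3.76, 4.58 and 7.65 CPM to 12.8, 13.2 and 21.0 CPM with the knockout (log2 fold change 1.79, SE 0.19, adjusted p = 0.00118, edgeR, and 0.00795 with sex). The nuclear receptor gene Nr2f2 rose by 0.52 (SE 0.10, adjusted p = 0.0118, edgeR), and was 0.36 (adjusted p = 0.201) without cKO 3. With sex as a further term Nr2f2 was at 0.66 and lost its call (adjusted p = 0.0955, edgeR). Tbx4, which lies 44.47 kb from Tbx2, held 6 reads or fewer in every library. Over the 6 libraries, which share 2 sets, the tested genes of these lists with a log2 CPM pattern most like that of Tbx2 were Gli1 (Pearson r = 0.97), Foxd1 (0.93) and Id2 (0.92). For Vax1, the ventral member of smallest p, they were Efna1 (0.85), Boc (0.80) and Tbr1 (0.69).

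**Figure D4:**
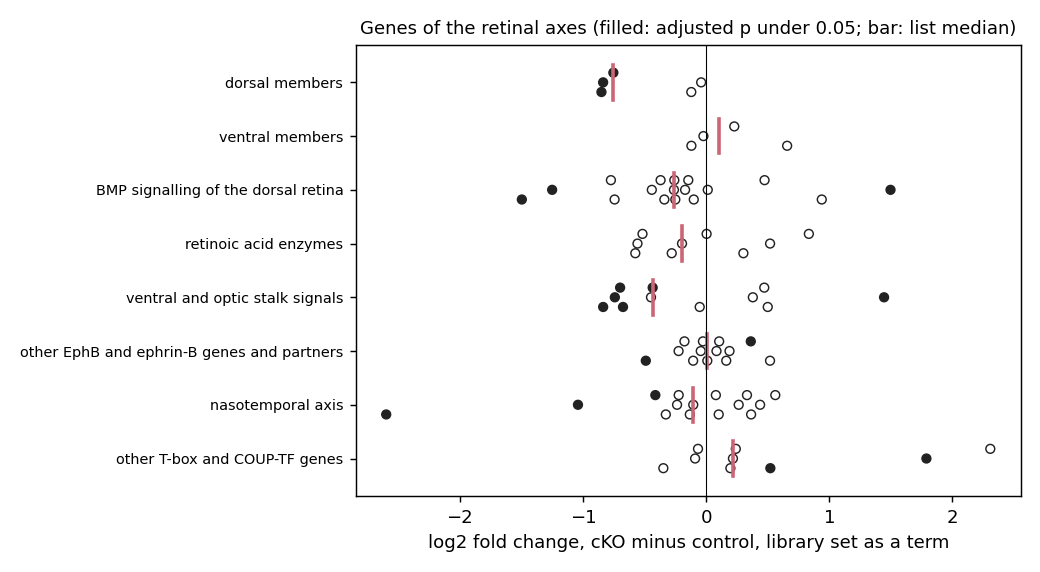
Log2 fold change of each tested gene (x axis, cKO minus control, library set as a term) in the dorsal and ventral members and the 6 lists of axis genes; filled points had an adjusted p under 0.05 and red bars are list medians. The dorsal members have a median of -0.75 and the other T-box and COUP-TF genes one of 0.22.

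Markers of retinal and other cells moved between the same groups, and their part in the fall of the T-box genes was not tested. Of 12 progenitor markers 8 fell and 1 rose, with summed levels of 7211 to 7603 CPM in controls and 4072 to 5648 CPM in cKO. Of 11 ganglion cell markers 10 rose, with sums of 1390 to 1756 CPM in controls and 2112 to 3007 CPM in cKO. Of 8 amacrine markers 1 fell, and the sums overlapped (717 to 1610 CPM and 652 to 1425 CPM). Among endothelial and pericyte markers, which bear on Efnb2, 9 of 13 tested rose and 1 fell. Kdr, which progenitors also express, held most of their summed level (557 to 726 CPM against 312 to 594 CPM), and without it, a sum added after seeing the values, the ranges were 42.7 to 48.2 CPM in controls and 72.0 to 170 CPM in cKO. Rgs5 of pericytes rose by 2.24 (SE 0.16) and Cdh5 of endothelium by 2.13 (SE 0.27, and 1.64 with adjusted p = 0.0727 in edgeR without cKO 3), while the receptor gene Ephb4 of veins gave -0.18 (adjusted p = 0.521, edgeR). The arterial markers Gja5 and Bmx stayed under 1 CPM in every library.

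Tissues next to the retina were checked in the same way. Of 8 astrocyte and optic nerve markers, relevant to Vax1, 2 rose, with sums of 323 to 572 CPM in controls and 421 to 671 CPM in cKO, while Pax2, the optic stalk factor in that list, gave -0.05 (adjusted p = 0.878, edgeR). Lens markers rose in 8 of 8 tested (2.27 to 4.74 CPM in sum, against 796 to 1958 CPM). Of 8 ciliary margin markers 2 rose (182 to 225 CPM against 238 to 370 CPM), and of 7 tested pigment epithelium markers 0 passed with edgeR, DESeq2 or limma-voom (2 at an unadjusted p under 0.05 in edgeR, 9.64 to 16.5 CPM against 14.6 to 32.4 CPM). Of 9 tested markers of periocular mesenchyme and cornea 1 rose, and their sums were 7.32 to 24.9 CPM in controls and 11.4 to 24.4 CPM in cKO. Microglial markers rose in 7 of 8 (27.9 to 41.9 CPM against 68.8 to 89.4 CPM) and blood markers in 2 of 4 tested (0.69 to 12.4 CPM against 18.8 to 22.5 CPM). Of 10 ventral forebrain and hypothalamic markers 2 were tested and both rose (0.37 to 0.63 CPM against 5.20 to 18.0 CPM), 8 stayed under 1 CPM in every library and Foxb1 had 0 reads. Of 3 tested skeletal muscle markers 1 rose and 1 fell (4.04 to 7.24 CPM against 3.37 to 5.04 CPM).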

How the data were processed

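Retinal RNA of 6 newborn mice was sequenced, 1 library per mouse. The labels' protocols name Qiagen RNeasy for extraction and Illumina TruSeq for the libraries. Each deposited table holds raw read counts for Ensembl identifiers. The submitters' processing notes list GRCm38 with STAR, HTSeq and edgeR, without versions, and the sources used here give no strand setting. The 5 rows that name no gene held 26.41 to 28.76% of counts and were left out. Symbols, positions and exon lengths come from GENCODE vM21 on the same build (37693 of 39179 identifiers matched).

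The analysis used edgeR 4.0.16 under R 4.3.3, with its expression filter by group (16691 genes kept), TMM scaling, and glmQLFit and glmQLFTest with library set and genotype as terms (3 residual degrees of freedom). Standard errors and 95% intervals were derived from each gene's F statistic, and p-values were adjusted over all genes tested with a threshold of 0.05. Log2 CPM used a prior count of 2. Set was read from the ambiguous row, a technical measure, and sex from 4 Y-linked genes. The series gives 3 mice per group, so libraries were treated as separate animals. No pair of libraries in a group had counts that agreed within sampling noise (chi-square per degree of freedom of 23.0 or more), so none was counted as the same library. Alternatives were genotype alone, sex as a further term, the label number as a block, RLE or no scaling, other filters, DESeq2 1.42.0, limma-voom (limma 3.58.1) and leaving out each library.

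The members and gene lists were chosen with earlier results of these data known. Named genes were all members, Lhx2, up to 4 list genes of smallest p past the threshold (else the 1 of smallest p), markers by counts with at most 2 named, and the 3 genes most like the leading dorsal and ventral member; further genes are said to be chosen for their role, and Gli2, Cyp26a1, Ephb4, Pax2 and Tbx4 were named after their values were seen. Some items are not reported here.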

Additional observations from a re-analysis of the deposited data

Results flagged for a closer look

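Epha8, an ephrin receptor gene of the nasotemporal list, differed between library sets in its genotype difference, and was singled out after its values were seen. In set A the control held 108 CPM and the cKO libraries 189 and 176 CPM, while in set B the controls held 103 and 106 CPM and the cKO library 50.3 CPM. The log2 difference between genotypes was 0.76 in set A and -1.05 in set B, a difference between sets of -1.81 that passed edgeR's test of set and genotype together. That test rests on control 2 alone in set A and cKO 3 alone in set B, so it does not show that the sets differ, and the values are a description.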

How the results depend on the processing

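The counts beside 3 members, 16 genes of the axis lists and 2001 of all genes changed as follows. With genotype alone 0 members, 0 axis genes and 36 of all genes passed, those 36 all higher, and sex as a further term left 0, 4 and 236. Without a filter 3 members, 27 axis genes and 3063 of all genes passed. With the label number as a replicate block 2 members, 22 axis genes and 2040 of all genes passed. The block replaced library set, since the 2 shared numbers fall 1 in each library set and number and set cannot be told apart. Deviations of same-numbered libraries correlated at 0.77 and 0.67. Libraries of the same set with other numbers reached 0.71 (control 2 and cKO 1) and 0.67 (control 4 and cKO 3). Numbers 1 and 4 occur once each, so cKO 1 and control 4 do not inform the genotype difference in that fit. Leaving out single libraries gave 2 to 3 members, 7 to 20 axis genes and 310 to 2707 of all genes, with 720 without control 2, 997 without control 3, 1268 without control 4, and 10 and 7 axis genes without control 2 and cKO 3; the dorsal minus ventral difference stayed between -0.82 and -0.59. Over 15 alternatives Tbx2 ranged from -0.94 to -0.68 and Tbx3 from -0.79 to -0.62, with 13 calls each, and Tbx5 from -1.13 to -0.51 with 11. Of 135 values of members under alternatives 7 had the other sign, all for genes that did not pass: Efnb1 (0.18) and Ephb3 (0.27) with genotype alone, Ephb3 with library size alone (0.014) and without cKO 1 (0.044), and Efnb2, Ephb2 and Ephb3 without control 2. With single libraries left out Efnb2 ranged from -0.26 to 0.051, Ephb2 from -0.25 to 0.043, Ephb3 from -0.14 to 0.13, Ephb4 from -0.39 to 0.093 (highest without control 2) and Aldh1a1 from -0.38 (without cKO 3) to 0.43. Bmp4 was 0.49 with sex. Aldh1a1 turned to -0.043 with the replicate block, -0.034 with RLE, -0.023 without a filter, -0.033 with DESeq2, -0.0036 with limma-voom, -0.045 without control 3 and -0.10 without control 4. The cause of these changes was not tested. Some of the alternatives also had fewer libraries or residual degrees of freedom. Vax1, Bmp4 and Foxd2 are limited by depth, with at most 242 reads of Vax1 and 63 of Foxd2 in a library.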
